A study of Mus musculus with 9 samples.

Results

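The expression baseline described here is that of J1 mouse embryonic stem cells kept for 24 h with DMSO, the solvent control of the series. Its members were the 3 arrays whose titles name DMSO, of 9 in all, and on them every gene was placed by its hybridisation signal and by whether it stood well above background. The cells are of the 129S4/SvJae strain, were adapted to gelatin in place of feeder cells, and grew in serum replacement medium to which leukaemia inhibitory factor (LIF) was added at 1000 U/mL. They were vehicle-treated rather than untouched, since every DMSO sample received the solvent, whose dose the labels do not state. The other groups, with 3 arrays each, received 3 µM CHIR99021, an inhibitor of glycogen synthase kinase 3, or 1 mM AICAR, a cell-permeable activator of AMP-activated protein kinase, for 24 h in the same LIF medium. All 9 samples come from 1 established line, and the labels number the replicates without saying that they are separate cultures, so errors and p-values speak only for the spread among the arrays, part or all of which could be technical.

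Embryonic stem cells are derived from the inner cell mass of the blastocyst and can give rise to all tissues of the embryo. A network of transcription factors built around Pou5f1 (Oct4), Sox2 and Nanog holds this state, and Esrrb, Klf4 and their partners belong to its naive, pre-implantation form. LIF signals through Lifr and Il6st to Stat3 and keeps mouse cells in self-renewal, whereas genes of the primed, post-implantation epiblast, such as Dnmt3b, Otx2 and Fgf5, rise as cells leave that state. Because the arrays measured bulk RNA, a low signal from a few cells and a low signal from all cells cannot be told apart.

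The 5 marker genes of embryonic stem cells were well above background on all 3 DMSO arrays. Values are the log2 of the scanner software's processed signal minus the 75th percentile of each array, so 0 marks that percentile and 1 unit is a 2-fold difference in signal. Pou5f1, the POU-domain factor at the centre of the network, read 4.04, 4.16 and 4.17 on the 3 arrays, which placed it at percentile 91.8 ± 0.37 (SD, n = 3) of 20660 genes. Sox2, its HMG-box partner, read 3.33, 3.32 and 3.42 (percentile 87.1 ± 0.38). The arrays differed little for either gene. Esrrb, an orphan nuclear receptor, read 5.91, 5.82 and 5.87 (percentile 97.5 ± 0.07). Klf4, a zinc finger factor, read 4.12, 4.14 and 4.13 (percentile 91.8 ± 0.09). Dnmt3b, a de novo DNA methyltransferase, read 6.16, 6.24 and 6.24 (percentile 98.0 ± 0.06) on its brightest probe, and its other probes averaged 4.77 and 4.66.

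**Figure D1:**
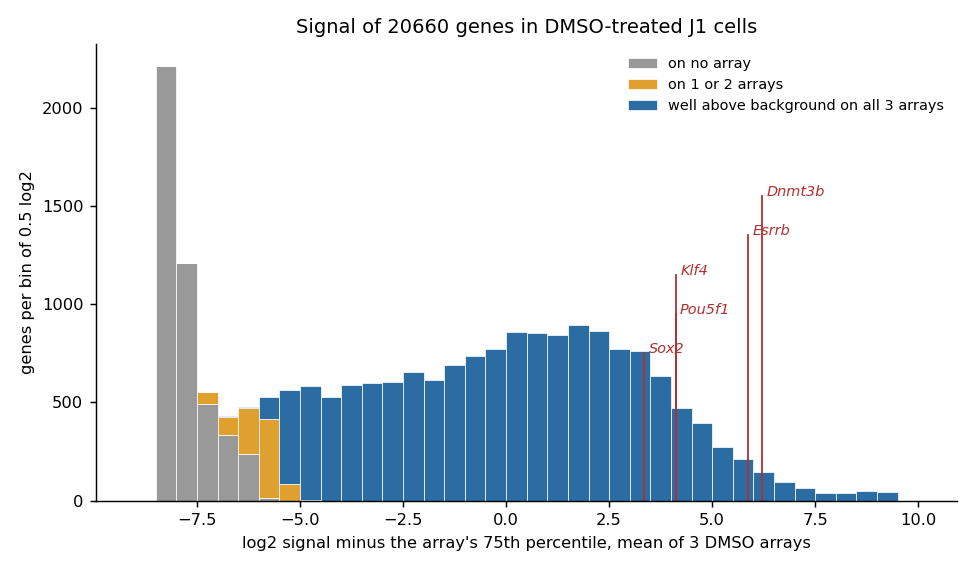
Number of genes (vertical axis) per bin of 0.5 log2 of mean DMSO signal (horizontal axis, log2 minus the array's 75th percentile). Colours give genes well above background on all 3 arrays (15278), on 1 or 2 arrays (876) or on no array (4506), and red lines mark the 5 stem cell markers, which lie between 3.36 and 6.21.

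Across the DMSO arrays, the software called 65.6% to 66.2% of the 59305 non-control spots well above background and none saturated. The 75th percentile of the processed signal was 608 to 612, replicate spots on an array varied by a median of 4.96% to 5.63%, and the spike-in dilution series gave slopes of 0.969 to 1.00. That share was 62.8% to 65.1% on the CHIR99021 arrays and 66.4% to 67.2% on the AICAR arrays. Each group was hybridised on a slide of its own and scanned on its own, so slide and treatment cannot be told apart.

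Roughly 3 in 4 genes gave a signal in these cells. Of the 20660 genes with a symbol, 15278 (73.9%) had a probe well above background on all 3 DMSO arrays, 876 (4.24%) on 1 or 2 of them, and 4506 (21.8%) on none. Detected counts of the lists and families below are to be read against the 73.9%. The genes detected on all arrays had a median signal of 0.39, and those on none a median of -7.99. Genes on no array are those whose signal did not clear the background, which bounds their level and does not show that the transcript is absent. The classes overlapped in signal where they met. Il10 (-6.84), Klra5 (-6.61), Prss58 (-6.49) and Olfr1307 (-6.28) were the dimmest genes counted as detected. Pcdhb4 (-5.86), Gjc3 (-5.89), Vmn1r59 (-5.90) and Gm5105 (-5.90) were the brightest genes on no array. The top decile of the detected genes, 1528 in all or 7.4% of all genes, began at 4.33. Just inside that limit lay Rab9, Rp9, Sarnp and Drap1 (all 4.33), and just outside it Egln2, Ssr3, Pcnp and Cenpa (all 4.32), so membership at the limit carries no meaning.

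Large receptor families of specialised tissues gave low signals for most of their members. Olfactory receptors, the odorant receptors of the nose, were on all 3 arrays for 136 of 1071 genes (12.7%, against 73.9% over all genes) and on no array for 842. The vomeronasal receptors, which sense pheromones, were on all 3 for 30 of 252 and on none for 199. Bitter taste receptors (5 of 35), beta-defensins (7 of 43) and keratin-associated proteins of hair (22 of 51) were likewise seldom detected, and no gene of these 5 families reached the top decile. Their detected members were not all dim, since the brightest olfactory receptor lay at percentile 82.5. Probes of such families may bind transcripts of related copies or of unrelated genes, and this was not tested. Cytochrome P450 genes were intermediate, with 51 of 98 detected, as were the Hox cluster genes that pattern the body axis, with 21 of 39 detected and 15 on no array.

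Genes of protein synthesis gave many of the brightest probe signals. Of 84 cytosolic ribosomal protein genes, all were detected and 82 lay in the top decile, with a median percentile of 99.6, and together they took 17.3%, 17.9% and 17.7% of the summed gene signal on the 3 arrays. The brightest 1% of genes (207) took 42.5% of that sum and the brightest 10% (2066) took 82.3%. Among the 20 genes with the highest signal were several of these, Rpl35, Rps10, Rps20, Rps14, Rpl37a, Rps12 and Rpl11 among them, and Fau, which encodes a ribosomal protein fused to a ubiquitin-like protein. The alpha-tubulin gene Tuba1b (9.40, 9.56 and 9.48) and the histone genes H2ac12 (9.39, 9.53 and 9.49) and H2ac10 (9.19, 9.30 and 9.25) were there too. Probes of ribosomal protein and histone genes may bind near-identical copies, so these values are uncertain as to the copy. Mitochondrial ribosomal proteins (77 of 78 detected, 32 in the top decile), subunits of respiratory complex I (37 of 37, 31), the proteasome (39 of 40, 26), aminoacyl-tRNA synthetases (18 of 18, 10) and the chaperonin (9 of 10, 7) were also nearly all detected.

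Several other genes of that group of 20 owed their place to 1 probe that other probes of the gene did not match. Kctd14 had the highest mean of all genes, at 9.46, 9.53 and 9.46 on its brightest probe, but its other probes averaged -5.07 and -5.20. For Glrx2, a mitochondrial glutaredoxin, the probes averaged 9.43, 2.33 and -4.68. The 2 probes of Slc10a1, a bile acid transporter of hepatocytes, averaged 9.31 and -7.50, the dimmer one on no array. Of the 20 genes, 10 had several probes, which differed by over 10 log2 in 3 genes and by under 2 in 3 others. Over the whole array, 5476 genes had several probes, whose highest and lowest means were 2.24 log2 apart at the median and over 2 log2 apart in 54.1%. Of the 643 genes of the top decile with several probes, all probes lay in that decile for 184. A rank is therefore a property of the probe as well as of the gene, and ranks and orders given here are those of probe signals, not of transcript levels.

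**Figure D2:**
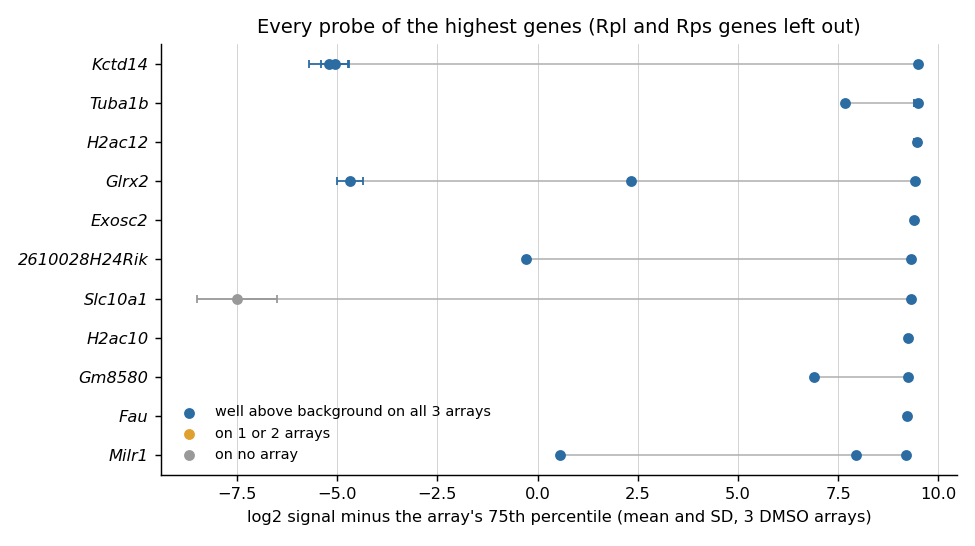
Mean DMSO signal of every probe (points, with the SD over 3 arrays) of those of the 20 genes with the highest signal whose symbols do not begin with Rpl or Rps, on a log2 scale relative to the array's 75th percentile; grey lines join probes of a gene. For Kctd14, Glrx2 and Slc10a1 the probes lie over 10 log2 apart, whereas the Tuba1b probes average 9.48 and 7.68.

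The core pluripotency genes were all detected, 16 of 16, with 7 in the top decile and a median percentile of 91.5, against 50.0 over all genes. Dppa5a, a KH-domain RNA-binding protein of the early embryo, gave 8.39 ± 0.05 (SD, n = 3, percentile 99.5). Also in the top decile were L1td1, an RNA-binding protein derived from a transposon (7.09 ± 0.05), Trim28, the corepressor of zinc finger proteins (6.50 ± 0.03), and Utf1, a chromatin-associated factor (5.80 ± 0.04). Zfp42 (Rex1), Tdgf1 (the Nodal co-receptor Cripto) and the RNA-binding protein Lin28a were its other members from this list. Nanog, a homeobox factor of the core network, gave 0.21 ± 0.07 (percentile 61.4) on its single probe, and the forkhead factor Foxd3 gave 0.62 ± 0.11 (percentile 65.0).

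Naive pluripotency genes were detected in 18 of 18 cases, with a median percentile of 87.6 and 5 in the top decile: Esrrb, the growth factor Fgf4 (5.62 ± 0.03), Klf2 (5.25 ± 0.07), Fbxo15 (4.87 ± 0.07) and Klf5 (4.60 ± 0.03). Prdm14, which represses the primed programme, lay at 1.09 ± 0.08, Dppa3 (Stella) at 0.77 ± 0.09 and Sox15 at 0.54 ± 0.09. All 14 genes of the primed epiblast were detected as well, at a lower median percentile of 66.6. Their levels were uneven. Dnmt3b and the Hippo pathway factor Tead2 (5.37 ± 0.02) were in the top decile and the homeobox gene Otx2 reached 2.98 ± 0.04 (percentile 84.2). By contrast, Fgf5, the classical mark of the post-implantation epiblast, lay at -4.61 ± 0.04 (percentile 31.1).

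**Figure D3:**
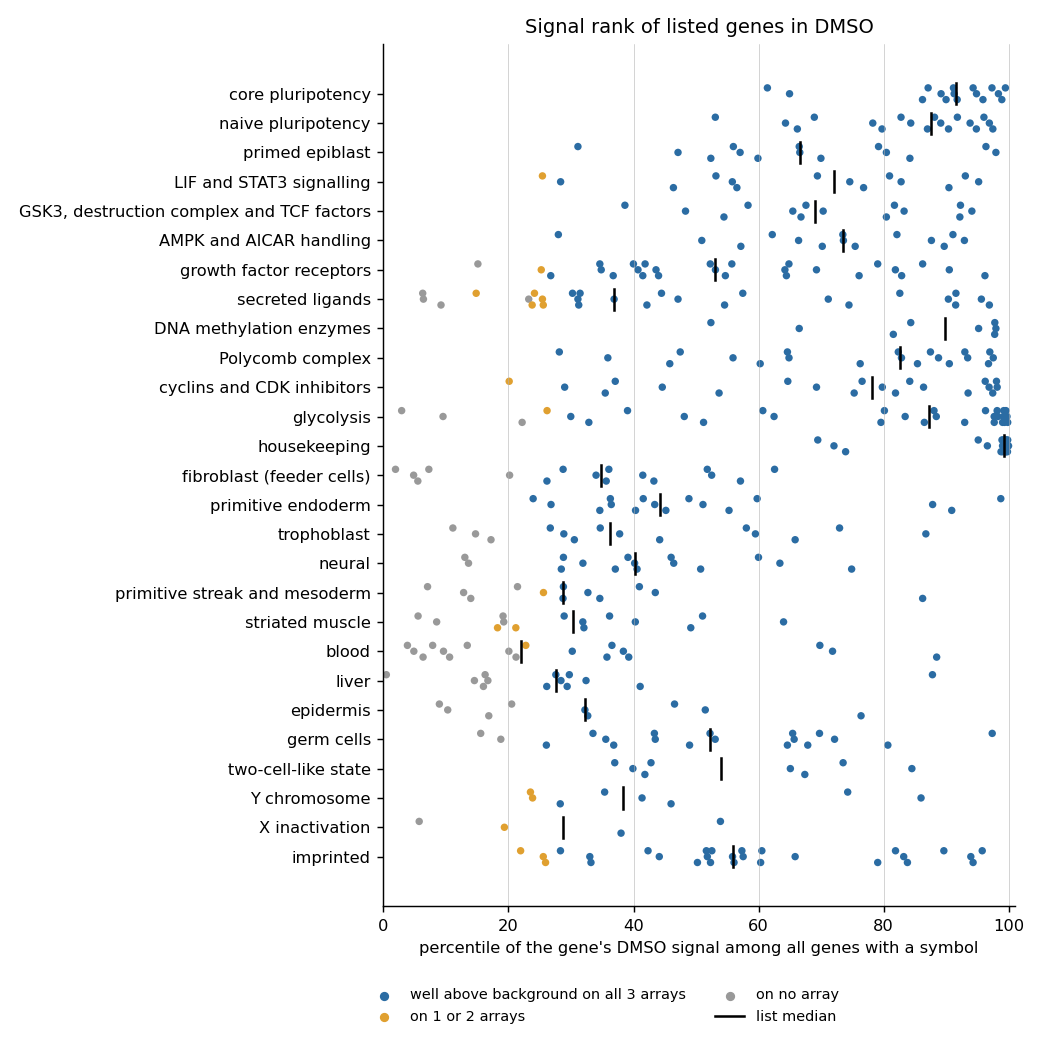
Percentile of each listed gene's mean DMSO signal among 20660 genes (horizontal axis) for 27 gene lists (rows); colours give detection on all 3, on 1 or 2 or on no array, and black lines the list medians. Medians run from percentile 22.0 for blood genes to 91.5 for core pluripotency and 99.2 for housekeeping genes.

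The LIF pathway was present from receptor to target. Of 14 genes 13 were detected on all arrays: Lifr (2.80 ± 0.02), its partner Il6st (gp130, 2.05 ± 0.08), the kinase Jak1 (1.78 ± 0.10), Stat3 (3.88 ± 0.06), the phosphatase Ptpn11 (4.43 ± 0.04) and Socs3, the Stat3-induced feedback inhibitor (4.97 ± 0.10, percentile 95.2). Lif itself, which was supplied in the medium, read -5.64 ± 0.42 and cleared the background on 2 of the arrays.

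The targets of both compounds were detected in the DMSO cultures. Gsk3a (4.23 ± 0.04) and Gsk3b (2.66 ± 0.02), the kinases that CHIR99021 inhibits, and Ctnnb1, which encodes beta-catenin (4.67 ± 0.02), were among 14 of 14 detected genes of the destruction complex and TCF factors. Axin2, a feedback target of Wnt signalling, read -3.25 ± 0.06 (percentile 38.6). The Wnt ligands gave a signal on all arrays in 10 of 19 cases and on none in 8, and the Frizzled receptors in 10 of 10. Genes for AMP-activated kinase and for handling AICAR were detected in 14 of 14 cases. They include the nucleoside transporter Slc29a1 (4.39 ± 0.07), adenosine kinase Adk (3.74 ± 0.06), which phosphorylates AICAR, and Atic (3.99 ± 0.09), which uses its phosphate. The catalytic subunits read 1.66 ± 0.09 for Prkaa1 and -0.34 ± 0.02 for Prkaa2, and the muscle subunit Prkag3 read -5.20 ± 0.44.

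Growth factor receptors were broadly detected (25 of 27), with a median percentile of 53.1. The activin receptor Acvr2b read 5.30 ± 0.06, Fgfr1 3.89 ± 0.05 and the stem cell factor receptor Kit 2.81 ± 0.04, and Erbb4 was on no array. The VEGF receptor Kdr read 3.23 ± 0.07 on 1 probe, but its other probe averaged -6.24 and was well above background on 1 array. Of the secreted ligands, 18 of 27 were detected, fewer by share than the 73.9% over all genes. Fgf4, the TGF-beta family members Gdf3 (5.12 ± 0.04), Lefty1 (4.08 ± 0.06) and Nodal (3.86 ± 0.03), and Pdgfa (4.07 ± 0.07) lay above percentile 90. Inhba, Fgf3, Shh and Wnt3a were on no array.

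The DNA methylation enzymes were detected in 8 of 8 cases, and Dnmt3b, its cofactor Dnmt3l (6.07 ± 0.02), the maintenance factor Uhrf1 (6.07 ± 0.06) and the dioxygenase Tet1 (4.96 ± 0.05) lay in the top decile. The Polycomb group was detected in 20 of 20 cases, with the core subunit Eed (5.91 ± 0.04), the histone chaperones Rbbp7 and Rbbp4, Mtf2 and Jarid2 in the top decile. The chromobox genes Cbx7 (-3.71 ± 0.13) and Cbx8 (-5.17 ± 0.26) were at the other end.

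Among cyclins and inhibitors of cyclin-dependent kinases, 19 of 20 were detected and 6 were in the top decile: Cdk4, Ccnb2, Ccne1, Ccnd3, Ccnb1 and Ccna2. The inhibitor p21, encoded by Cdkn1a, lay at 1.85 ± 0.02 and Cdkn2b at -2.24 ± 0.14. Glycolysis was represented by 26 of 30 genes, 13 of them in the top decile. Aldoa (8.94 ± 0.10), Ldha (8.58 ± 0.08) and Eno1 (8.02 ± 0.06) were among the brightest. Slc2a2, the glucose transporter GLUT2 of liver, and the hexokinase Hk3 were among those on no array, and the liver pyruvate kinase Pklr was on 2.

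Imprinted genes, expressed from one parental copy, were detected in 25 of 28 cases (89.3%, against 73.9% over all genes). The maternally expressed noncoding RNA Meg3 (5.17 ± 0.01), Gnas (4.72 ± 0.01) and Impact (4.63 ± 0.05) lay in the top decile, while Igf2 (-5.62 ± 0.23) was on 2 of the arrays. On the sex chromosomes, Eif2s3y (3.20 ± 0.03) and Ddx3y (1.75 ± 0.12) of the Y chromosome were detected, and 6 of 8 Y genes in all (75%). Xist, the RNA that coats an inactive X chromosome, had 2 probes with means of -6.98 and -7.44, and 1 of them cleared the background on a single array.

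Markers of other cell types were mostly in the lower part of the range, and none of the defining lists lacked detected members. Feeder cells are fibroblasts. Of 16 fibroblast genes 11 were detected (68.8%, against 73.9% over all genes) and none lay in the top decile, the brightest being Thy1 (0.33 ± 0.06). Col1a2 read -0.99 ± 0.06 and Col1a1 -2.45 ± 0.11, whereas Postn, Lum, Fap, Col5a2 and Twist2 were on no array. Primitive endoderm genes were detected in 16 of 16 cases. The matrix protein gene Sparc (6.91 ± 0.04), Lamb1 (3.96 ± 0.05) and Lama1 (3.47 ± 0.07) lay in the upper part of the range, and the lineage factors Gata6 (-2.15 ± 0.09), Gata4 (-2.43 ± 0.04) and Sox17 (-3.61 ± 0.08) lay below the median of all genes.

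In the trophoblast list 11 of 14 were detected (78.6%, against 73.9% over all genes), from Tfap2c (3.30 ± 0.06) to Cdx2 (-5.42 ± 0.40). Elf5, Hand1 and Tpbpa were on no array. Neural genes were detected in 13 of 15 cases (86.7%), among them Tubb3 (1.81 ± 0.04) and Nes (0.43 ± 0.01), with Dcx and Neurog2 on no array. The trophoblast share thus lay near that of all genes and the neural share above it, in lists of only 14 and 15 genes. Of 12 genes of the primitive streak and mesoderm 7 were detected (58.3%), and Mixl1, Evx1, Foxf1 and Msgn1 were on no array. The Brachyury gene T (-5.61 ± 0.43) was on 2.

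The lists for striated muscle (8 of 14), blood (8 of 18), liver (8 of 13) and epidermis (5 of 9) were detected less fully than the 73.9% over all genes. Alb, the serum albumin gene, Fgb of fibrinogen, Lyz2 of macrophages, the blood factor Spi1, the adult globin genes Hbb-bs and Hbb-bt, the myogenic factor Myf5 and the epidermal envelope gene Ivl were on no array. Some members of these lists were detected on only 1 of their probes. For Trp63 of basal epidermis the probes averaged 1.99 and -7.97, and for cardiac Myh6 0.51 and -6.61. In both genes the dimmer probe was on no array. Itgam of myeloid cells was on all arrays with each of its probes. These averaged 3.57, -2.69 and -3.23, so its level, though not its detection, rested on 1 probe. Both probes of the liver apolipoprotein gene Apoa2 (3.47 and 1.90) were on all arrays, as were both of the T cell gene Cd4 (1.47 and -4.24). Cd3e of T cells read 1.20 ± 0.03 on its single probe, which leaves no other probe to compare. Part of the lists' detection may thus lie with single probes, which was not tested.

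Germ cell genes were detected in 17 of 19 cases (89.5%, against 73.9% over all genes), at a median percentile of 52.2. Stra8, a gene that retinoic acid induces at the entry into meiosis, read 5.98, 5.83 and 5.66 and was in the top decile. Mael (2.51 ± 0.04), Sycp3 (1.20 ± 0.05), Ddx4 (0.98 ± 0.10) and Dazl (0.68 ± 0.03) were also detected. The two-cell-like genes, active in rare cells of stem cell cultures that resemble the cleavage embryo, were detected in 8 of 8 cases, with Zscan4f at 1.66 ± 0.08 and Zscan4c at 0.92 ± 0.07. Copies of Zscan4 and Usp17l genes are near-identical, so these values are uncertain as to the copy.

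The baseline repeated closely from array to array. Of the detected genes with values on every array, 88.2% (13470 of 15272) fell in the same decile on all 3 arrays, and 1483 of the 1570 genes that reached the top decile on any array did so on all. The SD of a gene over the 3 arrays had a median of 0.062 log2, and it fell from 0.20 in the bottom decile of signal to 0.043 in the highest. Only 90 detected genes (0.59%) had an SD over 0.5. The most variable of them was Pcp4, a calmodulin-binding peptide of neurons, at -5.27, -1.12 and -5.48, where replicate 2 stood apart. Fam160b2 read 2.13, 4.76 and 4.77, with replicate 1 low. S100g, a calcium-binding protein (-4.59, -2.36 and -4.63), and the peptide transporter Slc15a1 (-4.68, -4.68 and -2.28) likewise had 1 array apart from the rest. The 3 arrays correlated across genes with Pearson r of 0.998 to 0.999, a description in which genes are not independent replicates.

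Promoter sequence, which the rule did not use, differed between the classes. Promoters are the 250 bases before and 50 after the start of each gene in RefSeq (GRCm38.p6), matched by symbol for 15742 of 19662 protein-coding genes. The CpG ratio compares the number of CG dinucleotides with the number that the base composition gives, and CpG-rich promoters are the common form at broadly used genes. Its median was 0.20 (quartiles 0.09 and 0.36) for genes on no array and 0.24 for genes on 1 or 2. It was 0.36 in the bottom decile of detected genes, 0.71 in decile 5 and 0.83 (quartiles 0.67 and 0.96) in the highest. A ratio over 0.6 was found in 11.7% of promoters of genes on no array and in 82.3% in the top decile. Olfactory receptors, with a median of 0.11, and ribosomal proteins, with 0.86, lay at the ends. The genes on no array include 842 olfactory receptors and 199 vomeronasal receptors, and the latter family also had a median of 0.11. The classes were not compared without these 2 families. The 10 core pluripotency genes with a promoter sequence had a median of 0.55, under the 0.72 of all detected genes. These are descriptions over genes, which are not replicates.

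Short motifs were sought on both strands. TATAAA, the core of the TATA box, was in 26.2% of promoters of genes on no array, in 4.59% in decile 7 and in 8.24% in the top decile (12.7% of all 15742 promoters of protein-coding genes). It was in 40.8% of olfactory and 35.4% of vomeronasal receptor promoters, families with many genes on no array. GGGCGG, the GC box, was in 16.1% of promoters of genes on no array, 69.0% in decile 6 and 68.0% in the top decile (49.6% of all protein-coding genes). CCGGAA, the core of ETS-factor sites, was in 4.77% on no array and 35.7% in the top decile (20.1% of all protein-coding genes). GGGCGG and CCGGAA hold a CG and so overlap with the CpG count. CCAAT was in 38.5% of promoters on no array and 43.0% in the top decile (38.8% of all protein-coding genes).

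The 150 bases before the start of several genes are shown, the stem cell markers among them, with CG dinucleotides in capitals. They run 5′ to 3′ on the strand of the gene, come from RefSeq (GRCm38.p6) and lie upstream of the annotated start, outside the transcript. The first belong to detected genes, the stem cell markers Pou5f1 (chr17:35505882-35506031, plus strand), Sox2 (chr3:34649845-34649994, plus), Esrrb (chr12:86360967-86361116, plus), Klf4 (chr4:55532476-55532625, minus) and Dnmt3b (chr2:153649299-153649448, plus), then Nanog (chr6:122707339-122707488, plus), Gapdh (chr6:125165774-125165923, minus) and Tuba1b (chr15:98934391-98934540, minus). The others, from Alb on, belong to genes on no DMSO array, Alb (chr5:90460720-90460869, plus), Lyz2 (chr10:117282273-117282422, minus), Ivl (chr3:92573736-92573885, minus), Myf5 (chr10:107486135-107486284, minus) and Dcx (chrX:143933220-143933369, minus).
Pou5f1: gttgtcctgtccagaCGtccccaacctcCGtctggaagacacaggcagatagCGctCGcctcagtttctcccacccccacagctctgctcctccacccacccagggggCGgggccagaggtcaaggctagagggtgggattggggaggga
Sox2: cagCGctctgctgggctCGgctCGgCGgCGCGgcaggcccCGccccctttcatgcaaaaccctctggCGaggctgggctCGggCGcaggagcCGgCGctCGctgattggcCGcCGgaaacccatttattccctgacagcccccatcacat
Esrrb: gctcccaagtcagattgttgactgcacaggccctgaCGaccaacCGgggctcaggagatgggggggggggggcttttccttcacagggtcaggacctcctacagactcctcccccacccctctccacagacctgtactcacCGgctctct
Klf4: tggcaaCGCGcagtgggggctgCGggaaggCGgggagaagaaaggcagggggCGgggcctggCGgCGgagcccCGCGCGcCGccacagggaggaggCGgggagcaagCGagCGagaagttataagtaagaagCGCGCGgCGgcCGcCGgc
Dnmt3b: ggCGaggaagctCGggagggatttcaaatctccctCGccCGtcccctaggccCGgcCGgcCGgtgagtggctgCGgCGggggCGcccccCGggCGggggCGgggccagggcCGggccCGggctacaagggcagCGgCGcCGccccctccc
Nanog: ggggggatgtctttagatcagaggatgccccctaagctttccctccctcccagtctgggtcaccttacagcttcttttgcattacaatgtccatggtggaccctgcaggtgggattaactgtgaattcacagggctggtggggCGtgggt
Gapdh: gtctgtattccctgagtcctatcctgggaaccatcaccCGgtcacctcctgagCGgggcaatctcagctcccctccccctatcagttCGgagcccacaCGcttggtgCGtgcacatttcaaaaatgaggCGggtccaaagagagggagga
Tuba1b: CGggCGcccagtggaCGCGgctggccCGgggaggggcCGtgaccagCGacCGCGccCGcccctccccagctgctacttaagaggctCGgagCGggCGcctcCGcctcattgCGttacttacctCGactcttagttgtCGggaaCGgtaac
Alb: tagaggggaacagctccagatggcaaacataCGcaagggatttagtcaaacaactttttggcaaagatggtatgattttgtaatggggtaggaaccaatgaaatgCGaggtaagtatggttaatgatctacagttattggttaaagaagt
Lyz2: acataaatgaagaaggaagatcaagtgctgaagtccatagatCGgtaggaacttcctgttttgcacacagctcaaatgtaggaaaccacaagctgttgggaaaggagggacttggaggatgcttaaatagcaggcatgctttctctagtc
Ivl: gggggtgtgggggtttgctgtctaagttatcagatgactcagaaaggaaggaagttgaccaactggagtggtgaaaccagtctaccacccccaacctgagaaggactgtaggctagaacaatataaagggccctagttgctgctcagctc
Myf5: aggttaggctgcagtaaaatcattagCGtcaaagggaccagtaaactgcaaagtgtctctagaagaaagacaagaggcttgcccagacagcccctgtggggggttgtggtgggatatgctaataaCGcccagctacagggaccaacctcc
Dcx: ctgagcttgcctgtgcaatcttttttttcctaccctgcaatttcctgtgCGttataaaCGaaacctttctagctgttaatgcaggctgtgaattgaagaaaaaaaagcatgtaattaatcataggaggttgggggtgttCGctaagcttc
In these stretches Klf4 has 20 CG dinucleotides, Dnmt3b and Tuba1b 18 each, Sox2 15, Gapdh 6, Pou5f1 5, Esrrb 3 and Nanog 1. The stretches of genes on no array hold 0 in Ivl, 1 in Lyz2, 2 in Alb, 2 in Myf5 and 3 in Dcx, so the detected genes Nanog, Esrrb, Pou5f1 and Gapdh lie near them. TATAAA or its reverse complement is found in Ivl and Dcx alone of these genes, and GGGCGG or its reverse complement in Pou5f1, Sox2, Klf4, Dnmt3b and Tuba1b. A match is not evidence of a bound site.

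**Figure D4:**
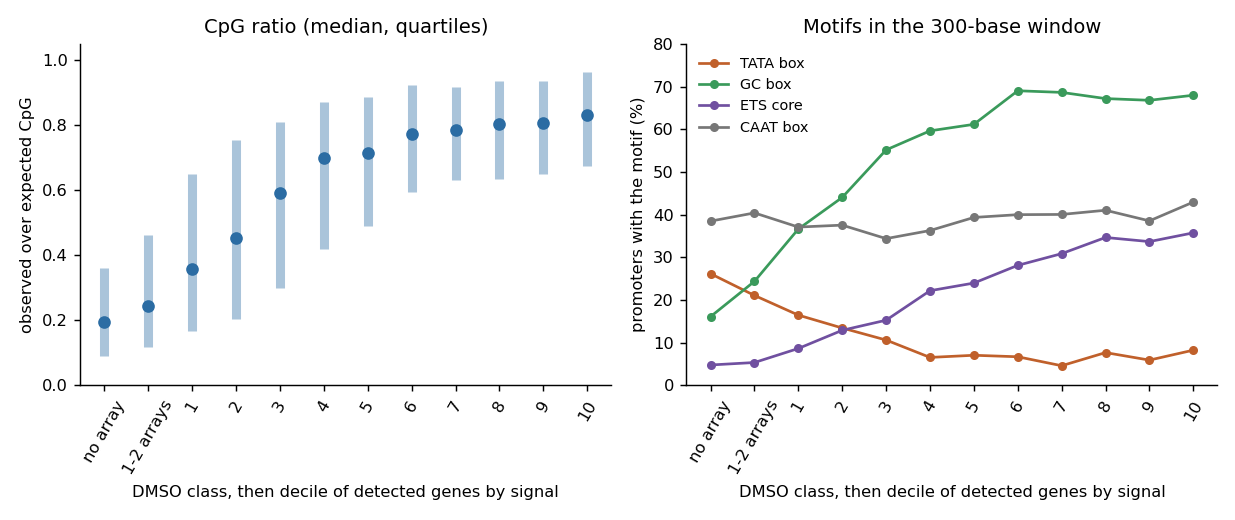
Left, CpG ratio of the 300-base promoter window (points, median over genes; bars, quartiles) for genes on no DMSO array, on 1 or 2, and in the 10 deciles of detected genes by signal. Right, share of promoters (%) with 4 motifs in the same classes; the CpG ratio climbs from 0.20 to 0.83, the share with a GC box from 16.1% to 68.0%, while the share with a TATA box is 26.2% on no array, 4.59% in decile 7 and 8.24% in the top decile.

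Most detected genes of the baseline stayed detected under both treatments, while the signals of many features shifted, markers among them. Of the genes on all DMSO arrays, 14739 were on all CHIR99021 arrays and 14978 on all AICAR arrays. All 9 arrays entered 1 limma fit over 26875 features, with rises and falls called at an adjusted p (Benjamini-Hochberg) under 0.05. With CHIR99021 51% of features were called, 30.4% higher and 20.5% lower. That split, 8182 against 5516, became 6845 against 6400 with quantile normalisation and 4906 against 4814 with spike-in scaling. With AICAR 60.5% were called, 30.9% higher and 29.6% lower, a split that spike-in scaling turned to 9501 higher and 4501 lower, against 8313 and 7944, moving the median of all features from 0.03 to 0.17 log2. Calls this common are the background of every count below, and slide and treatment cannot be told apart in any of them.

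Pou5f1 did not pass the test with either compound in the main fit. It read 4.15, 4.59 and 4.17 with CHIR99021 and 4.94, 4.30 and 4.51 with AICAR, against 4.04, 4.16 and 4.17 in DMSO. The log2 difference was 0.18 ± 0.17 (SE; limma adjusted p = 0.419) and 0.46 ± 0.17 (limma adjusted p = 0.0505). The CHIR99021 difference was 0.04 without CHIR99021 replicate 2. The AICAR difference was 0.28 without AICAR replicate 1. The AICAR value lay at the threshold and passed it without AICAR replicate 2 (limma adjusted p = 0.0208) and without CHIR99021 replicate 2 (0.0343). It also passed with only features well above background on all 9 arrays (limma adjusted p = 0.0372). Each other scaling tried called the rise too: normexp (limma adjusted p = 0.00681), quantile (0.0132), the deposited series values (0.0140) and spike-in (0.0290). Klf4 rose with both, at 5.22, 5.18 and 5.17 with CHIR99021 and 4.96, 4.96 and 4.95 with AICAR, with no overlap between the groups (log2 differences 1.06 ± 0.04 and 0.83 ± 0.04, limma adjusted p = 6.69e-07 and 1.38e-06). Esrrb rose by 0.73 ± 0.05 and 0.44 ± 0.05 (limma adjusted p = 1.67e-05 and 0.000165). Sox2 rose by 0.26 ± 0.06 and 0.36 ± 0.06 (limma adjusted p = 0.00729 and 0.00115), of which the CHIR99021 call was lost when arrays were scaled on the spike-ins (limma adjusted p = 0.0630). Dnmt3b was the marker that fell. It read 5.26, 5.27 and 5.25 with CHIR99021 and 4.36, 4.34 and 4.21 with AICAR, log2 differences of -0.95 ± 0.05 and -1.91 ± 0.05 (limma adjusted p = 5.17e-06 and 1.81e-07).

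**Figure D5:**
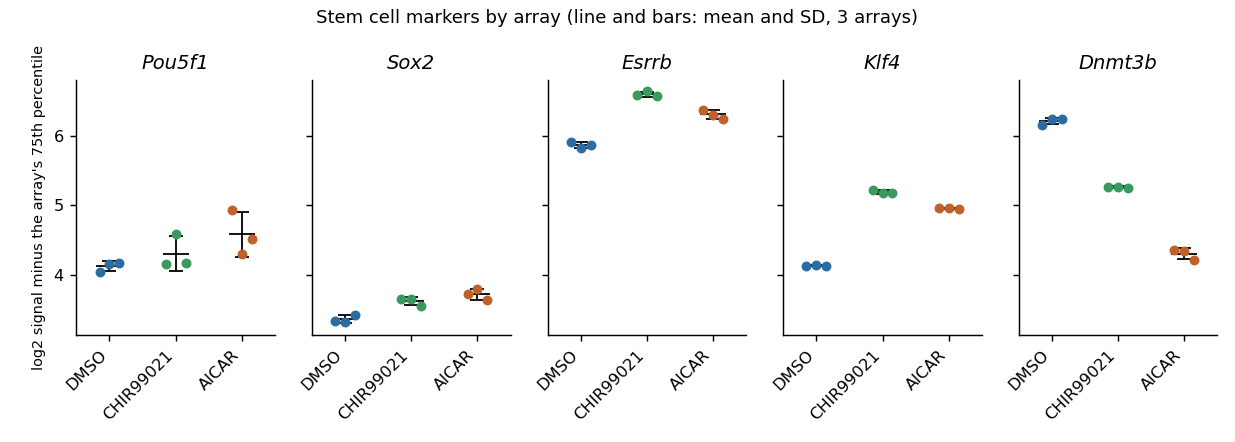
Signal of the 5 stem cell markers on each array (points; log2 minus the array's 75th percentile) after 24 h with DMSO, CHIR99021 or AICAR; lines and bars give the mean and SD of 3 arrays. Klf4 and Esrrb lie higher and Dnmt3b lower in both treated groups than in DMSO, without overlap, whereas the Pou5f1 values of DMSO and CHIR99021 overlap. The Pou5f1 values with AICAR all lie above those of DMSO.

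Among the listed genes, the naive and primed lists moved in different directions with CHIR99021. Of 18 naive genes 15 rose and 2 fell (median log2 difference 0.53, against 0.07 over all features), and with AICAR 9 rose and 4 fell. Tfcp2l1, a factor downstream of LIF, rose by 2.59 ± 0.05 (limma adjusted p = 3.63e-08) with CHIR99021. Of 14 primed genes 11 fell and 1, Cdh2, rose with CHIR99021, and all 14 fell with AICAR (medians -0.97 and -1.37, the latter against 0.03 over all features). Otx2 fell by 5.17 on the log2 scale with CHIR99021 and by 1.25 with AICAR. The core list was mixed, with 2 rising and 9 falling with CHIR99021 and 3 and 11 with AICAR. Both contrasts use the same DMSO arrays, so they are not independent of each other.

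Glycolysis genes went opposite ways by count, 4 rising and 13 falling of 27 tested with CHIR99021 and 17 rising and 1 falling with AICAR. Over all features 30.4% rose and 20.5% fell with CHIR99021, and 30.9% and 29.6% with AICAR. The median log2 differences of the glycolysis genes were small, -0.19 with CHIR99021 and 0.29 with AICAR, against 0.07 and 0.03 over all features. The gene that fell with AICAR was the muscle enolase Eno3 (log2 difference -1.35 ± 0.05, limma adjusted p = 5.95e-07). Of the two-cell-like genes 5 of 8 fell and 1 rose with CHIR99021, with a median log2 difference of -0.68. They fell in 6 of 8 cases with AICAR, with a median of -3.10, and Zscan4f fell by 3.87. As Zscan4 and Usp17l copies are near-identical, the 8 genes may not be separate readings.

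Changes of 2-fold or more were also counted among the brightest genes of the baseline. The matching 2-fold share over all features was not counted, so these numbers do not set the decile apart. Of the 1528 genes of the top decile, 342 rose and 287 fell with CHIR99021, and 3 were called and at least 2-fold higher and 12 at least 2-fold lower. With AICAR 146 rose and 880 fell, 7 and 37 of them by at least 2-fold. The shares called over all features were 30.4% higher and 20.5% lower with CHIR99021, and 30.9% and 29.6% with AICAR. The genes of the decile were chosen on their DMSO values, so the counts are a description and carry no test. The median over the decile with AICAR was -0.21, and it was -0.04 with quantile normalisation and -0.07 with spike-in scaling, so its size turns on the scaling. Dnmt3l had the largest fall with both compounds, from 6.06, 6.07 and 6.09 to 3.76, 3.92 and 3.74 and to 3.54, 3.33 and 3.34. Foxp1, a forkhead factor (-2.04 ± 0.06), Meg3 (-1.41 ± 0.08), Utf1 (-1.22 ± 0.06) and Stra8 (-1.22 ± 0.13) followed with CHIR99021. The largest rises there were those of Tdh, threonine dehydrogenase of mouse stem cells (1.55 ± 0.07), the metallothionein Mt1 (1.12 ± 0.07) and the tetraspanin Cd63 (1.01 ± 0.06). With AICAR the amino acid transporter Slc38a2 fell by 2.12 on the log2 scale. Ddit4, a stress-induced inhibitor of mTORC1 (1.78 ± 0.16), the aldolase Aldoc (1.59 ± 0.06) and Mt1 (1.45 ± 0.07) had the largest rises.

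Few genes crossed the background in either direction. Of the 4506 genes on no DMSO array, 65 were on all 3 CHIR99021 arrays and 173 on all 3 AICAR arrays, and of the 15278 on all DMSO arrays 195 and 88 were on none. The detection limit differed between the groups. The highest processed signal not called well above background was 12.1 to 12.4 on the DMSO arrays. It was 13.6 to 15.0 on the CHIR99021 arrays and 10.6 to 12.5 on the AICAR arrays. How far these limits shaped the counts was not tested. Since the dim side has only a bound, ratios are lower limits, taken against the lowest signal well above background or the gene's own signal where that was higher. The lymphocyte receptor Btla read -7.52, -8.05 and -8.10 in DMSO and -0.30, -0.33 and -0.25 with CHIR99021, at least 55.2-fold higher. Dmgdh and Bhmt2, enzymes of dimethylglycine and methionine metabolism that are neighbours in the RefSeq annotation, were at least 52.8-fold and 32.4-fold higher, and Evx1, a homeobox gene of the streak, was higher by at least 24.0-fold. In the other direction, the eye and brain factor Pax6 read -2.01, -2.08 and -1.97 in DMSO and was on no CHIR99021 array, at least 13.6-fold higher in DMSO. It was the brightest of the 195 genes, at percentile 46.0. With AICAR, Otop2, a proton channel (at least 16.0-fold), Dner, a Notch ligand of neurons (at least 11.2-fold), and the forkhead factor Foxc2 (at least 7.46-fold) appeared. Pramel16, Usp17lb and Hoxb1 were detected in DMSO and on no AICAR array, with DMSO higher by at least 8.78-fold, 8.11-fold and 6.53-fold. The brightest of the 88 genes that were on no AICAR array lay at percentile 40.6 in DMSO.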

How the data were processed

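Total RNA of 9 samples was hybridised to 1-colour Agilent arrays. The deposited scanner files hold intensity on a linear scale, made with Agilent Feature Extraction 10.7.3.1, per the file headers. The deposited series matrix holds log2 values of unstated centring and served only as an alternative. The 75th percentile of each array was subtracted from the log2 processed signal, without its outlier spots (136 to 192 per array), and repeated spots were averaged by probe. Names came by accession from the RefSeq gene table of GRCm38.p6: of 55681 probes, 27235 matched and 28446 kept the file's name. A gene took its brightest probe, and counted as detected when any probe was well above background on all arrays where it was measured, at least 2. Features well above background on at least 3 of 9 arrays were fitted with limma 3.58.1 in R 4.3.3 (lmFit, eBayes, Benjamini-Hochberg), which was tested on simulated data. Normexp used the median spot and background signals with an offset of 50. Named genes are the markers, the listed genes, the 20 highest, the 8 most variable, the 4 on each side of a class limit, the 5 largest called rises and falls of the top decile and the 6 brightest that crossed the background, with family members against their family's trend. Members and lists were chosen with earlier results of these data known. The number of arrays limits the precision. Some genes that the naming rule picked are left out of the text.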

Additional observations from a re-analysis of the deposited data

Results flagged for a closer look

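The arrays carry 96 probes for the external RNA control set (ERCC), which no comparison used and which the labels do not mention as added. Every spot of 4 of these probes was well above background on all 3 DMSO arrays, and the brightest had a median processed signal of 118. The set as a whole had a median of 2.23, beside 2.24 for the dark corner spots that carry no target.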

How the results depend on the processing

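With the looser detection flag of the scanner software (positive and significant against background), the genes on no DMSO array numbered 1979 in place of 4506, and the median detected share over the lists and families was 95.5% in place of 89.4% (90% when 2 of 3 arrays sufficed). Under that flag 34 genes were gained and 73 lost with CHIR99021, and 84 gained and 44 lost with AICAR. The median percentile of the 5 markers was 91.8, and it was 92.8 with normexp, 93.6 when a gene's probes were averaged, and 91.8 to 92.0 when 1 DMSO array was left out. Probes of a gene well above background on all 3 arrays differed by a median of 2.20 log2 in place of 2.24. The difference in median CpG ratio between the highest class and genes on no array was 0.636 with deciles, 0.615 with tertiles and 0.60 with upstream bases alone. Deviations of same-numbered samples correlated by -0.055 to 0.088, and those of differently numbered samples by -0.129 to 0.109. With 3 arrays per group this cannot show whether same-numbered samples shared a culture, and the main fit used no pairing. With the replicate number as a block, 12714 features were called with CHIR99021 and 15468 with AICAR, and 226 and 254 listed genes. Among the recomputed marker changes, 162 kept their side of the threshold, and the other 8, of Pou5f1 and Sox2, are those described above. The 20 highest genes shared 12 with normexp and 11 with the mean of probes. The CHIR99021 median over the top decile, 0.01, turned to -0.01 with normexp and to -0.04 with quantile normalisation, with spike-in scaling and with the deposited series values. With AICAR, more features rose (8313) than fell (7944), and this turned to 10877 against 11252 with each probe tested on its own and to 7680 against 7731 without AICAR replicate 1. The cause of these shifts was not tested.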

Other observations

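Long noncoding RNA was detected less often than protein-coding RNA on these arrays. Of 792 long noncoding RNA genes 348 (43.9%) were on all 3 DMSO arrays, and of 19662 protein-coding genes 14802 (75.3%). Among 189 transcribed pseudogenes 116 were detected. The 16194 probes for unnamed chromosome intervals were on all 3 arrays in 8029 cases (49.6%).

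In families that were detected almost in full, single members stood out as not detected. Numbered zinc finger genes, many of which repress transposons, were on all arrays in 354 of 369 cases, and those on none included Zfp804a (-8.36 ± 0.02), Zfp109 (-8.26 ± 0.06) and Zfp9 (-6.94 ± 0.51). The proteasome subunit on no array was Psmb11 (-8.17 ± 0.01), a form of thymic epithelium, and the mitochondrial ribosomal protein was Mrpl21 (-8.31 ± 0.04). Each of these rested on a single probe. Median gene length in RefSeq was 8388 bases for protein-coding genes on no array, 25684 in the sixth decile of detected genes and 12275 in the highest. It was 951 for olfactory and 1088 for vomeronasal receptors, most of which were on no array.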
